A study of Mus musculus with 2 samples.

Results

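The collagen chain genes of mouse are the genes whose symbols have the form Col, a number, a and a number, and 44 of the 32285 genes in the count matrices carried such a symbol. They were followed through single cells of femurs from 7-week-old male C57BL/6J mice, in 1 library of untreated mice and 1 library of mice given calcitriol (1,25-dihydroxyvitamin D3, the active hormone form of vitamin D). Calcitriol was injected into a vein on 3 successive days at 2.5 µg per kg, and the bones were collected 24 h after the final dose. Each library pooled the femurs of 6 mice. In both groups the bone ends were cut off, the marrow was flushed out, the crushed bone was digested with collagenase D and EGTA, and CD45-positive blood cells were removed on beads. The comparison addresses which collagens each skeletal cell type transcribes and whether their levels differed between calcitriol-injected and untreated mice. With 1 library per group, animal, library and treatment cannot be told apart and no test between the groups was possible. The intervals given here cover counting error only.

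Collagens are proteins of 3 chains wound into a triple helix, which assemble outside the cell into fibrils, networks or filaments. Fibrillar collagens give bone, tendon and cartilage their tensile strength: type I collagen is the chief organic component of bone and tendon, type II that of cartilage, and type X marks hypertrophic cartilage of the growth plate. The type IV chains build the sheet-like basement membranes that underlie endothelium and surround muscle and Schwann cells. Collagen made in the cell must be hydroxylated, folded with the chaperone Hsp47 (encoded by *Serpinh1*), trimmed and cross-linked before a stable fibre forms.

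Of the 44 genes, 11 encode fibrillar chains, 6 basement membrane chains, 6 chains of the type VI kind that form beaded filaments, and 9 fibril-associated chains with interrupted helices (FACIT). A further 4 encode anchoring-fibril or short-chain network collagens, 4 transmembrane collagens, 2 multiplexins, and 2 other chains. A chain was described in a cell class where it had at least 50 unique molecular identifiers (UMIs, counted cDNA molecules) over both libraries. This held for 38 chains in at least 1 of 18 classes. The other 6 were *Col4a6*, *Col6a4*, *Col7a1*, *Col17a1*, *Col19a1* and *Col20a1*, each detected with fewer UMIs in every class. All 44 had at least 1 UMI in the matrices.

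The matrices held 6076 untreated and 4562 calcitriol barcodes, with 70266983 and 60392557 UMIs, and 8 barcode sequences occurred in both. After filters, 4442 untreated and 3683 calcitriol cells were kept, with median depths of 10976 and 12284 UMIs. Haemoglobin genes took 41.2% of UMIs in the untreated library and 10.6% in the calcitriol library, so the share of collagen among all UMIs, 2.44% and 2.89%, depends on how many red cell precursors each library holds. All levels below are therefore UMIs of the gene per 1000000 UMIs of the class (CPM), and ratios are log2 of calcitriol over untreated CPM within the class. Each molecule is counted once at its 3′ end, so CPM were not divided by gene length. Cells were clustered without the collagen genes and named from markers that hold no collagen, and a collagen level is thus not what formed or named a class. Erythroid-like cells of the same library served as the measure of free RNA. They carried 36.4 and 17.6 CPM of *Col1a1* (untreated and calcitriol) and 30.9 and 275 CPM of *Col2a1*, with 77.6% of the *Col2a1* UMIs of the calcitriol library in 1 cell.

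The windows around the start sites of the type IV gene pair and of *Col10a1* are shown because these genes carry much of what follows: the pair moved apart from most other chains between the libraries, and *Col10a1* separates the cartilage classes. Each window runs from 250 bases before to 50 bases after the start site (RefSeq, GRCm38.p6; 35 of the 44 genes have such a window). *Col4a1* (chr8:11312777-11313076, minus strand) and *Col4a2* (chr8:11312555-11312854, plus strand) lie on opposite strands with start sites 21 bases apart. The *Col4a1* start site, at 11312826, has the higher coordinate than that of *Col4a2*, at 11312805, so the first bases of the 2 transcripts overlap. The 78 bases that both windows share are in capitals, on opposite strands. In the *Col10a1* window (chr10:34389731-34390030, plus strand) the capitals mark the only match to TATAAA, which begins 32 bases before the start site.
*Col4a1*: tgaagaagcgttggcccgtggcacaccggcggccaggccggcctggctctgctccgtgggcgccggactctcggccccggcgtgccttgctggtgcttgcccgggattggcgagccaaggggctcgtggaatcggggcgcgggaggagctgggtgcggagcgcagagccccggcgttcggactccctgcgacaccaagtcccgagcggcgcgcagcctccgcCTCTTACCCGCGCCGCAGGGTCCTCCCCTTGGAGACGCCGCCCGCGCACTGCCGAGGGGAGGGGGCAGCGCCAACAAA
*Col4a2*: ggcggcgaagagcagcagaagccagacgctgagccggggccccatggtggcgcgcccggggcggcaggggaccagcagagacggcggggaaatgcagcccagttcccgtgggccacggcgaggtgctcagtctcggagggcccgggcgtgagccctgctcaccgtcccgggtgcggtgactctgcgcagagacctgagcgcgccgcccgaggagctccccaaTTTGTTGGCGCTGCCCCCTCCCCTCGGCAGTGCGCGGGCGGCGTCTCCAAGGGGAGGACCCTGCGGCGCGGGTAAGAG
*Col10a1*: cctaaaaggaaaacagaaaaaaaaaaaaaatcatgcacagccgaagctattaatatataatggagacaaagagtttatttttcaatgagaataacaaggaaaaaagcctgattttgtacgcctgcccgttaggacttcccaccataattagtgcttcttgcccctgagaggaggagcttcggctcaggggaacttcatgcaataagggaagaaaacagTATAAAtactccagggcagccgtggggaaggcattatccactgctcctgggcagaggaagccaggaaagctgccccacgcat
TATAAA, searched on both strands, occurred in 4470 of 32817 such windows (13.6%), and in neither type IV window.

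The collagen share of a class ranged over more than an order of magnitude and was highest in bone and growth plate cells. In untreated mice it was 11.8% of UMIs in *Ihh*-high chondrocyte-like cells, 10.9% in osteocyte-like cells, 9.30% in *Bglap*-high osteoblast-like cells, 9.07% in *Postn*-high osteoblast-lineage cells and 8.96% in growth plate chondrocyte-like cells. The *Tnfrsf11b*-led cells, left unnamed because they carried 6 markers of the hypertrophic chondrocyte list and 5 of the osteoblast list, had 5.35%. *Igfbp2*-high, *Angptl7*-high and *Chodl*-high tendon-like cells had 4.41%, 4.21% and 3.12%. Among the other cartilage classes, *Notum*-high chondrocyte-like cells had 4.08%, hypertrophic chondrocyte-like cells 3.79% and superficial articular chondrocyte-like cells 3.13%. Fibroblast-like cells had 2.51%, and the remaining 5 classes (synovial lining-like, smooth muscle or pericyte-like, *Gpihbp1*-high endothelial-like, Schwann-like and *Lyve1*-high endothelial-like) lay between 0.283% and 0.891%. The naming markers were present in both libraries: osteocyte-like cells held 7905 and 11029 CPM of *Dmp1*, and superficial articular chondrocyte-like cells 39029 and 40074 CPM of *Prg4*. No marker of a named class described here was at 0 in either library, but a few lay near 0, such as *Flt1* at 1.25 CPM in untreated *Lyve1*-high cells. Marker levels differed between the libraries in both directions. In *Bglap*-high cells *Bglap* stood at 24455 and 8698 CPM and *Ibsp* at 9433 and 13694 CPM. In *Postn*-high cells *Postn* stood at 8673 and 4338 CPM and *Mmp13* at 3383 and 9869 CPM. The part of these markers in the collagen levels was not tested. Cartilage classes were present although the bone ends had been cut off.

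**Figure D1:**
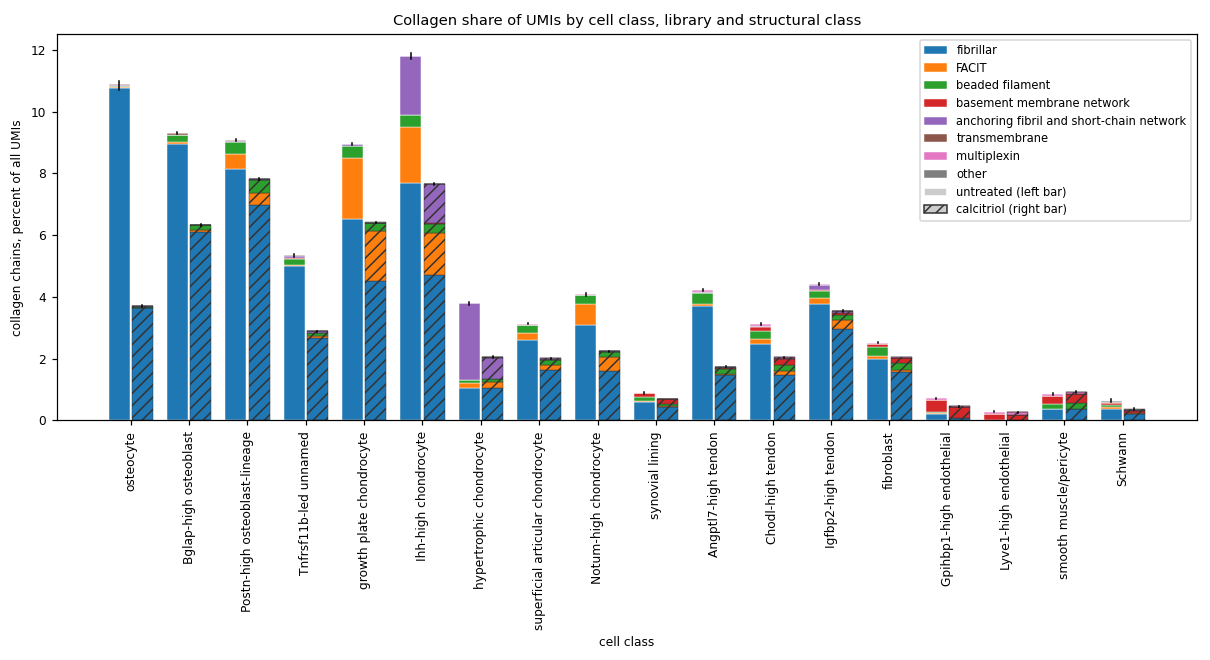
Collagen chains as percent of all UMIs (vertical axis) in 18 cell classes, stacked by structural class of the chain, with plain bars for the untreated and hatched bars for the calcitriol library (1 library per group). Black lines are exact 95% intervals of the whole share for counting error. The hatched bar is the lower one in 17 classes, and in osteocyte-like cells the share is 10.9% against 3.71%.

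In the calcitriol library the collagen share was lower in 17 of 18 classes, with an interval below 0 on the log2 scale in each of the 17. In summed UMIs, 2 classes were past 2-fold. Osteocyte-like cells went from 10.9% to 3.71% (log2 ratio -1.55, interval -1.57 to -1.53). *Angptl7*-high tendon-like cells went from 4.21% to 1.73% (-1.28, -1.30 to -1.27). The exception was the smooth muscle or pericyte-like class, at 0.857% and 0.918% (0.10, 0.05 to 0.15). Its ratio was below 0 under 3 alternatives, at -0.053 with collagen genes among the variable genes, -0.35 with cells thinned to 2000 UMIs and -0.44 with the mean of the cells' own CPM, and all 18 classes were then lower. The median over single cells was lower in 18 of 18 classes, the smooth muscle or pericyte-like class included (0.736% and 0.409%). This median was past 2-fold lower in more classes than the summed share. Besides osteocyte-like and *Angptl7*-high cells, these were *Bglap*-high (6.98% and 2.52%) and *Tnfrsf11b*-led cells (4.42% and 2.05%). Hypertrophic (2.41% and 0.876%) and *Chodl*-high cells (2.76% and 1.23%) were the others. All classes come from the same 2 libraries, so 17 classes are not 17 observations of the treatment.

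The spread among cells of a class was wide in both libraries. Single osteocyte-like cells ranged from 0.233% to 21.4% collagen in untreated mice (median 3.50%, 24 cells) and from 0.0137% to 16.2% in calcitriol mice (median 0.827%, 70 cells). *Ihh*-high chondrocyte-like cells had a median of 11.6% and a lowest cell of 8.07% in the untreated library (32 cells), against a median of 7.47% and a lowest cell of 0.470% in the calcitriol library (64 cells). The cells of the 2 groups overlapped in both classes.

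**Figure D2:**
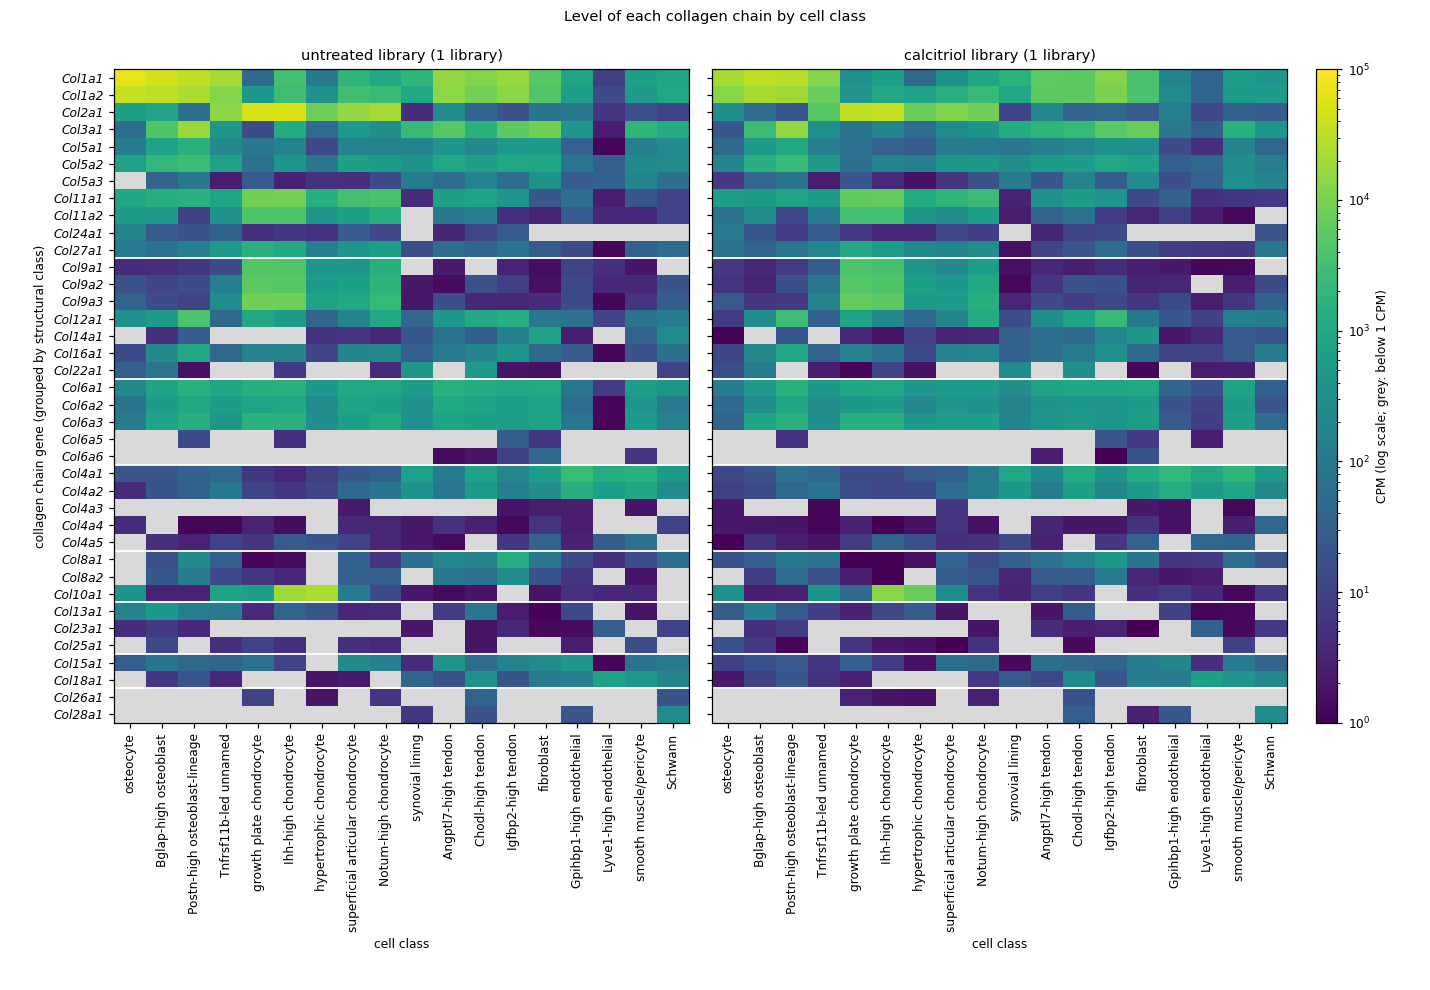
Level of each of 38 chains (rows, grouped by structural class) in 18 cell classes (columns) as CPM on a log colour scale, with the untreated library on the left, the calcitriol library on the right and grey below 1 CPM. *Col1a1* and *Col1a2* are brightest in bone and tendon classes, *Col2a1* and the type IX and XI chains in cartilage classes, and *Col4a1* and *Col4a2* in vascular classes.

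Fibrillar chains made up most of the collagen message in bone, tendon and cartilage classes other than the hypertrophic one, where they took 27.5% in untreated and 51.8% in calcitriol mice. *Col1a1* and *Col1a2*, the chains of type I collagen, were highest in bone. *Col1a1* stood at 67148 CPM in untreated and 21958 CPM in calcitriol osteocyte-like cells, at 47538 and 32714 CPM in *Bglap*-high osteoblast-like cells, and at 32981 and 30086 CPM in *Postn*-high cells. *Col1a2* stood at 36676 and 12977, 31971 and 22641, and 24076 and 19727 CPM in the same 3 classes. In summed UMIs, osteocyte-like cells thus ranked above the other bone classes for *Col1a1* in untreated mice and below both in calcitriol mice. The median osteocyte-like cell ranked below both in each library. Untreated medians were 24748 CPM in osteocyte-like, 32045 CPM in *Bglap*-high and 29618 CPM in *Postn*-high cells. Calcitriol medians were 2972, 11492 and 24115 CPM. Among tendon-like classes *Col1a1* was highest in *Igfbp2*-high cells, at 16804 and 11926 CPM, and fibroblast-like cells had 5044 and 3632 CPM. In cartilage classes other than the *Tnfrsf11b*-led cells it did not exceed 3237 CPM.

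*Col3a1*, the type III chain found beside type I in soft connective tissue, was the leading collagen of fibroblast-like cells (8745 and 6933 CPM, 34.3% of their collagen message). It was higher still in *Postn*-high osteoblast-lineage cells, at 18005 and 15483 CPM, and lower in *Bglap*-high osteoblast-like cells, at 4231 and 2669 CPM. It thereby separated the bone classes: *Col3a1* came after the type I chains in the *Postn*-high and *Bglap*-high cells and was under 50 UMIs in osteocyte-like cells. *Col5a1* and *Col5a2*, which encode type V chains that co-assemble with type I fibrils, were both highest in *Postn*-high cells (1584 and 1076 CPM for *Col5a1*, 2732 and 2454 CPM for *Col5a2*). *Col5a3* had another order, with 371 and 263 CPM in fibroblast-like cells and 195 and 330 CPM in smooth muscle or pericyte-like cells.

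*Col2a1*, the type II chain, had the highest mean level of both libraries in 4 of the 5 chondrocyte-like classes, all but the hypertrophic one. It was at 54746 and 35213 CPM in *Ihh*-high cells, 50087 and 33842 CPM in growth plate cells, 20761 and 8320 CPM in *Notum*-high cells and 15358 and 11363 CPM in superficial articular cells. Hypertrophic chondrocyte-like cells had 7864 and 7636 CPM, which differed by less than the counting error. *Col11a1* and *Col11a2*, the type XI chains that lie inside type II fibrils, were likewise highest in the *Ihh*-high and growth plate cells. *Col11a1* stood at 8726 and 5999 CPM in growth plate cells and at 3212 and 1836 CPM in superficial articular cells. *Col11a1* was also present in bone, with 1494 and 832 CPM in *Postn*-high and 868 and 617 CPM in osteocyte-like cells. *Col27a1*, a cartilage fibrillar chain, peaked in growth plate cells at 1462 and 1052 CPM.

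*Col24a1* was the one fibrillar chain restricted to a single class by the rule used here, a mean level of both libraries at least 4-fold above that of the next class. Osteocyte-like cells held 181 and 120 CPM, 4.63-fold above the *Tnfrsf11b*-led cells that came next. In the erythroid-like cells 0.158 CPM was found in the untreated library and no UMI in the calcitriol library.

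Cells with much message for both type I and type II collagen made up a larger share of 1 class than of any other. In the *Tnfrsf11b*-led cells, 37 of 55 untreated cells (67.3%) and 54 of 123 calcitriol cells (43.9%) had at least 1000 CPM of both *Col1a1* and *Col2a1*. None of those cells was scored as a doublet, and their median depth was 12847 and 13855 UMIs against 10232 and 10946 UMIs for the rest of the class. In other classes such cells reached at most 25% (6 of 24 untreated osteocyte-like cells). By number, many lay in other classes, such as 23 and 28 superficial articular cells and 10 and 22 *Notum*-high cells. In *Ihh*-high cells, by contrast, *Col2a1* went with *Col10a1*: 24 of 32 untreated and 50 of 64 calcitriol cells had at least 1000 CPM of both.

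**Figure D3:**
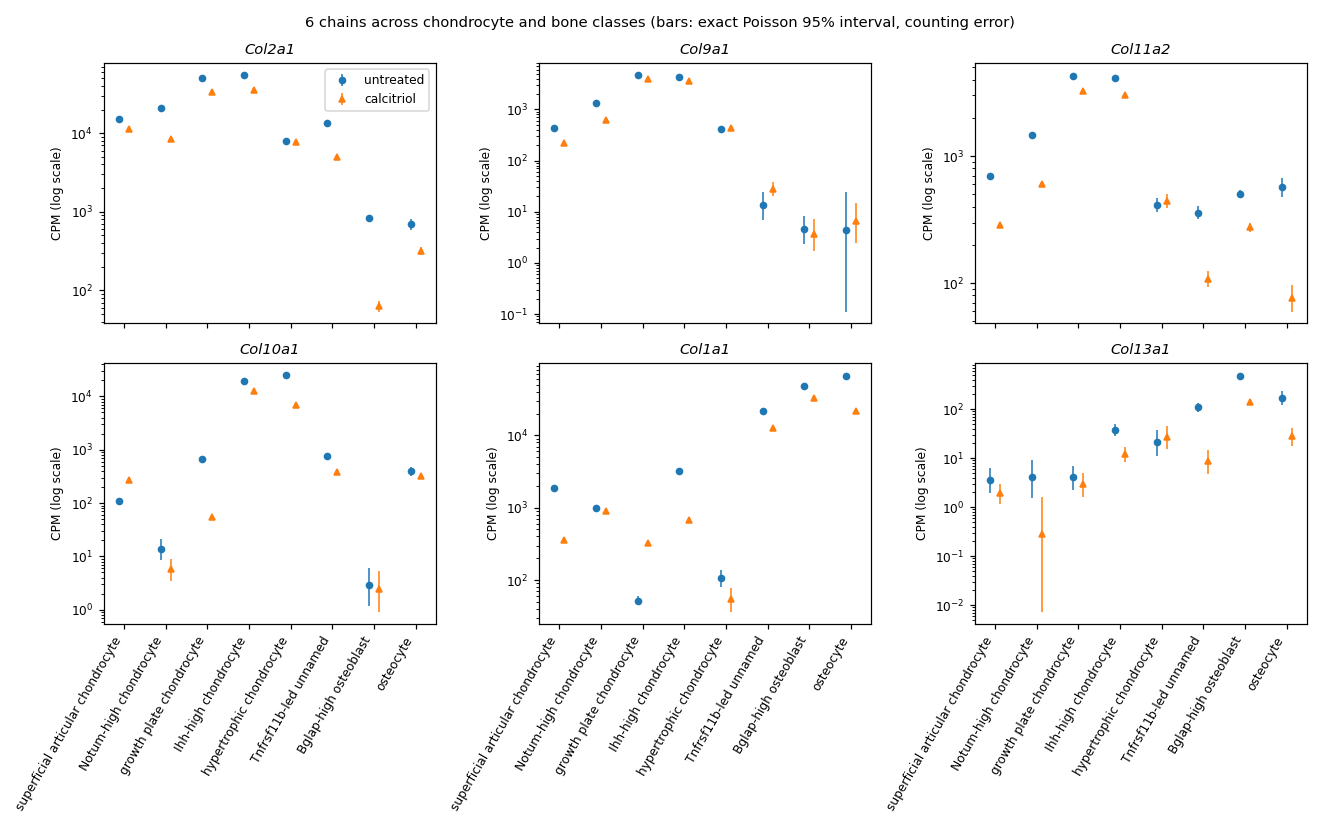
CPM (log scale) of *Col2a1*, *Col9a1*, *Col11a2*, *Col10a1*, *Col1a1* and *Col13a1* in 5 chondrocyte-like classes, the *Tnfrsf11b*-led class and 2 bone classes, with circles for the untreated library, triangles for the calcitriol library and bars for exact Poisson 95% intervals of counting error. A class with no UMI has no point. The *Tnfrsf11b*-led class has *Col2a1* at 13394 and 5028 CPM and *Col1a1* at 21428 and 12610 CPM.

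FACIT chains sit on the surface of fibrils. The 3 type IX chains, which coat type II fibrils, kept to cartilage: *Col9a3* was at 8509 and 6503 CPM in growth plate cells, 7803 and 5525 CPM in *Ihh*-high cells, 2266 and 1411 CPM in *Notum*-high cells and 937 and 570 CPM in superficial articular cells. *Col9a1* and *Col9a2* were highest in growth plate cells too, at 4636 and 3833 CPM and at 5416 and 4823 CPM. Type IX message as a whole was therefore several-fold lower in the superficial articular class than in the growth plate class, a wider gap than that of *Col2a1*.

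Other FACIT chains had different orders. *Col12a1* was highest in *Postn*-high cells (3908 and 2789 CPM), followed by *Igfbp2*-high tendon-like cells, where it was higher in the calcitriol library (1440 and 2467 CPM, log2 ratio 0.78). *Col14a1* was highest in fibroblast-like cells (732 and 473 CPM), and *Col16a1* in *Postn*-high cells (1011 and 953 CPM). *Col22a1*, a chain known from tissue junctions such as that of muscle and tendon, passed 50 UMIs in 3 classes: *Chodl*-high tendon-like cells (492 and 282 CPM), synovial lining-like cells (453 and 256 CPM) and *Bglap*-high osteoblast-like cells (93.3 and 121 CPM). No *Col22a1* UMI was seen in erythroid-like cells of either library.

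Type VI chains, which form beaded filaments around cells, were found in nearly all classes. Among classes with at least 50 UMIs, *Col6a1* ranged from 89.9 CPM in *Gpihbp1*-high endothelial-like cells to 1499 CPM in *Postn*-high cells of untreated mice, and *Col6a2* and *Col6a3* covered a like range. *Lyve1*-high endothelial-like cells fell below that number, with 7.47 CPM of *Col6a1* in untreated mice. *Col6a3* was at like levels in growth plate (1567 and 1372 CPM), *Ihh*-high (1490 and 1441 CPM) and *Postn*-high cells (1343 and 1553 CPM). *Col6a6* was restricted to fibroblast-like cells, at 46 and 18.8 CPM, 6.21-fold above the next class, and *Col6a5* was highest in *Igfbp2*-high tendon-like cells at 29.5 and 20.7 CPM.

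Among basement membrane chains, *Col4a1* and *Col4a2* led in vascular classes. *Col4a1* was at 2561 and 2018 CPM in *Gpihbp1*-high endothelial-like cells, 1536 and 1886 CPM in smooth muscle or pericyte-like cells and 1235 and 1012 CPM in *Lyve1*-high endothelial-like cells. Outside vessels it was high in *Chodl*-high tendon-like (773 and 1217 CPM), synovial lining-like (740 and 938 CPM), fibroblast-like (617 and 1177 CPM) and Schwann-like cells (529 and 477 CPM). In *Gpihbp1*-high cells *Col4a1* took 38.9% and *Col4a2* 22.4% of the collagen message. *Col4a5* was at 78.4 and 42.7 CPM in smooth muscle or pericyte-like cells, and *Col4a3* and *Col4a4* did not exceed 5.92 CPM in any class where they had 50 UMIs.

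*Col10a1*, the type X chain, had its highest untreated level in hypertrophic chondrocyte-like cells, at 24625 CPM, and 6902 CPM in the calcitriol library (log2 ratio -1.84, interval -1.89 to -1.78). In *Ihh*-high cells it was at 19106 and 12790 CPM, so that the order of the 2 classes differed between the libraries. The hypertrophic class held only 18 and 25 cells. The summed osteoblast markers of that class, 10 genes, stood at 6117 and 16821 CPM, and erythroid markers at 77776 and 226 CPM. Most of the osteoblast sum was *Ibsp*, at 4914 and 14685 CPM. *Ibsp* is also on the hypertrophic chondrocyte list and was 1 of the markers that named this class. The part of these markers in the *Col10a1* difference was not tested. *Col8a1* and *Col8a2*, the type VIII chains of short-chain networks, were both highest in *Igfbp2*-high tendon-like cells, with 1252 and 460 CPM and 295 and 112 CPM. By the mean of both libraries *Col8a1* was restricted to that class, 5.01-fold above the *Chodl*-high cells, which had 173 and 169 CPM. In the calcitriol library alone, the gap between the 2 classes was under 4-fold.

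Transmembrane collagens are anchored in the cell membrane. *Col13a1* was highest in *Bglap*-high osteoblast-like cells (466 and 142 CPM) and osteocyte-like cells (172 and 27.8 CPM). *Col23a1* passed 50 UMIs in *Lyve1*-high endothelial-like cells alone (32.4 and 30.9 CPM), and *Col25a1* in growth plate cells alone (9.94 and 5.81 CPM). Growth plate cells did not have the highest *Col25a1* level, however. On fewer UMIs, smooth muscle or pericyte-like cells had 15.3 and 9.06 CPM and *Bglap*-high cells 12.7 and 7.07 CPM. Of the multiplexins, whose ends release fragments such as endostatin, *Col18a1* was highest in *Lyve1*-high endothelial-like cells (791 and 690 CPM), where it ranked above *Col4a2*. *Col15a1* was highest in *Gpihbp1*-high endothelial-like cells (411 and 191 CPM) and *Angptl7*-high tendon-like cells (397 and 66.4 CPM). *Col28a1* was restricted to Schwann-like cells, at 275 and 274 CPM, 10.5-fold above the next class. *Col26a1* was highest in *Chodl*-high tendon-like cells, at 40.7 and 18 CPM.

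The classes with little collagen had mixed leading chains. In synovial lining-like cells *Col1a1* (1914 and 1687 CPM) and *Col3a1* (2229 and 1212 CPM) led, ahead of *Col1a2* and *Col4a1*. Smooth muscle or pericyte-like cells were led by *Col3a1* (1888 and 1551 CPM) and *Col4a1*, with *Col6a1* at 637 and 745 CPM. Schwann-like cells held *Col3a1* (1190 and 449 CPM), *Col1a2* (966 and 568 CPM), *Col1a1* (814 and 414 CPM) and *Col4a1* (529 and 477 CPM) above *Col28a1*.

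Within classes, chains lay lower in the calcitriol library more often than genes in general did. Of 370 chain and class pairs with at least 50 UMIs, 92 (24.9%) were at least 2-fold lower in calcitriol mice and 14 (3.78%) at least 2-fold higher. Over all 105984 gene and class pairs the shares were 4.10% lower and 3.61% higher. The chain pairs had a median log2 ratio of -0.50 and 76.2% of them were below 0, against a median of -0.08 and 56.8% for all pairs. The counting interval excluded 0 for each of the 106 chain pairs past 2-fold. These pairs were picked on the same counts, by at least 50 UMIs and a 2-fold ratio, so this adds no support. When the cell with most UMIs of the chain was taken out of each library, 18 of the 106 were no longer past 2-fold and 3 of those 106 turned sign.

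**Figure D4:**
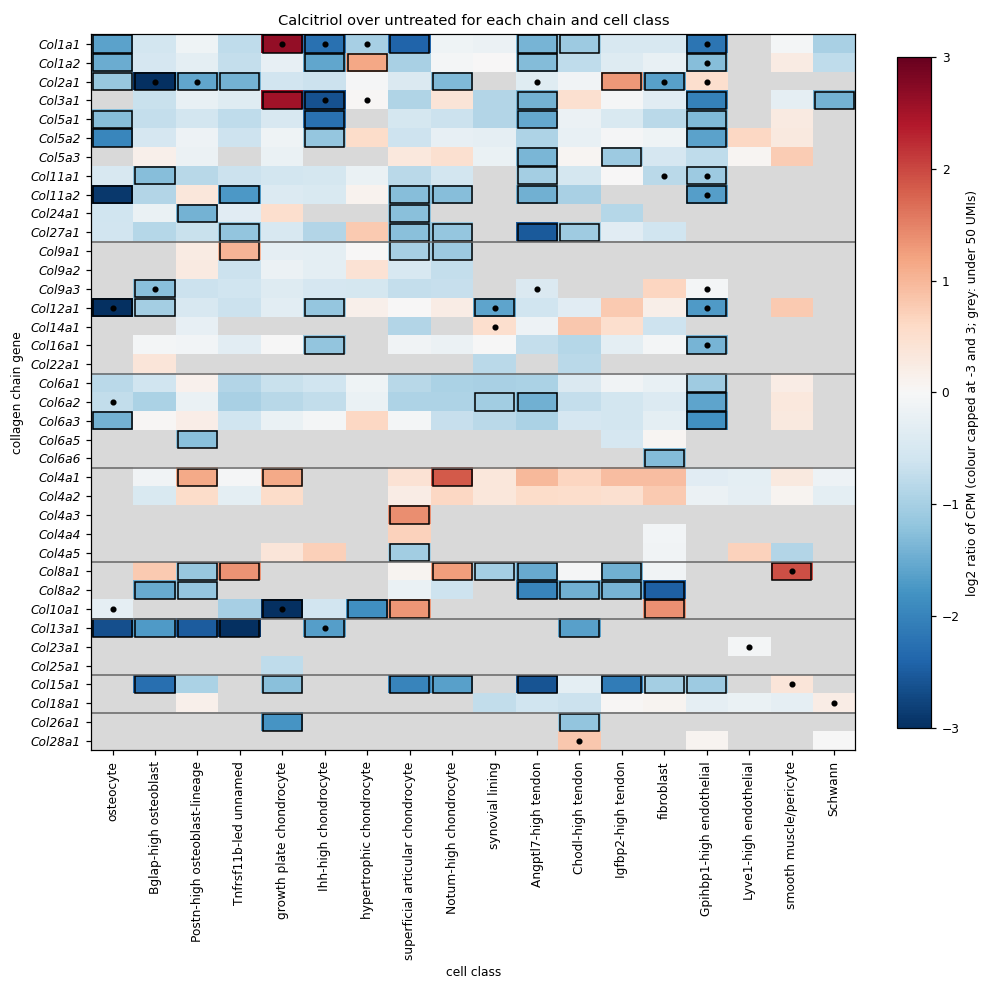
Log2 ratio of calcitriol over untreated CPM for each chain (rows) and cell class (columns) with at least 50 UMIs, with blue for lower and red for higher in the calcitriol library, the colour capped at 3, and grey below 50 UMIs. Boxes mark ratios past 2-fold, and dots mark pairs in which 1 cell holds at least 50% of the UMIs of a library. Of 370 pairs, 282 are below 0, while the *Col4a1* and *Col4a2* rows are red in tendon-like, synovial lining-like and fibroblast-like classes.

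By structure, lower levels were counted in every group of chains and higher ones in 4 of them. Fibrillar chains were at least 2-fold lower in 45 and higher in 4 of 155 pairs, beaded filament chains in 8 and 0 of 52, FACIT chains in 10 and 1 of 64, and short-chain network chains in 12 and 5 of 26. Transmembrane chains were lower in 6 and higher in 0 of 8 pairs, multiplexins in 8 and 0 of 21, and the other chains in 2 and 0 of 5. The lower transmembrane pairs were all of *Col13a1*, and the lower multiplexin pairs all of *Col15a1*. Over all gene and class pairs, 4.10% were lower and 3.61% higher. Basement membrane chains went the other way, with 1 lower and 4 higher of 39 pairs, 25 pairs above 0 and a median log2 ratio of 0.36. Of the 4 higher pairs, 3 were of *Col4a1* and 1 of *Col4a3*, at 2.25 and 5.92 CPM in superficial articular cells. The *Col4a1* ratio of growth plate cells, 1.13, turned to -0.23 without cells scored as doublets and to -1.61 when thinned.

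The basement membrane pair was followed class by class. *Col4a1* and *Col4a2* both had intervals above 0 in 7 of 15 classes, and in each of those 7 the collagen share as a whole was lower in the calcitriol library. In fibroblast-like cells *Col4a1* was at 617 and 1177 CPM (0.93, 0.88 to 0.99) and *Col4a2* at 291 and 501 CPM (0.78, 0.70 to 0.87). In *Notum*-high cells they were at 30.8 and 110 CPM (1.84) and at 82.7 and 128 CPM (0.63). The other 5 classes were *Postn*-high, synovial lining-like and the 3 tendon-like classes. In both endothelial-like classes both chains had intervals below 0, with *Col4a1* at -0.34 in *Gpihbp1*-high and -0.29 in *Lyve1*-high cells.

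Some chains were lower in nearly every class in which they could be read. *Col13a1* was past 2-fold lower in 6 of 6 classes, with log2 ratios from -1.62 in *Chodl*-high tendon-like cells to -3.69 in *Tnfrsf11b*-led cells (110 and 8.52 CPM). *Col15a1* was past 2-fold lower in 8 of 11 classes, *Col8a2* in 6 of 8 and *Col11a2* in 6 of 12. The genes are not neighbours: *Col13a1* lies at chr10:61838236-61979108, *Col15a1* at chr4:47208161-47313167, *Col8a2* at chr4:126286793-126314330 and *Col11a2* at chr17:34039437-34066685 (GRCm38).

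In osteocyte-like cells, 9 of 15 chains were at least 2-fold lower and 0 were higher, against 5.77% and 7.09% of all genes tested in the class. *Col1a1* had a log2 ratio of -1.61 and *Col1a2* of -1.50. *Col11a2* went from 568 to 76.8 CPM (-2.89), *Col13a1* from 172 to 27.8 CPM (-2.63), *Col5a2* from 718 to 185 CPM (-1.96), *Col6a3* from 110 to 41.2 CPM (-1.42), *Col5a1* from 132 to 54.5 CPM (-1.28) and *Col2a1* from 692 to 315 CPM (-1.14). For *Col12a1* (-5.39), 97.3% of the untreated UMIs came from 1 of 24 cells. *Col6a3* had 44.0% of its untreated UMIs in 1 cell and a ratio of -0.93 without the top cell of each library. All 15 ratios were below 0, but the intervals of *Col10a1* (-0.27, -0.61 to 0.09) and *Col6a2* (-0.75, -1.54 to 0.08) included 0, as did that of *Col27a1* (-0.58, -1.27 to 0.14). *Col10a1* had 70.8% of its untreated UMIs in 1 cell and a ratio of 1.13 without the top cell of each library. The summed level of the 10 osteoblast markers in this class was 13766 CPM in untreated and 4882 CPM in calcitriol mice, and its part in the lower collagen levels was not tested. *Spp1*, which encodes osteopontin, took 3.24% and 14.5% of the UMIs, and without its UMIs the log2 ratio of the collagen share was -1.37.

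In *Bglap*-high osteoblast-like cells, 7 of 24 chains were lower and 0 higher (all genes: 2.72% and 2.64%). *Col15a1* was at 86.1 and 17.9 CPM (-2.27), *Col13a1* at 466 and 142 CPM (-1.71), *Col8a2* at 23.7 and 8.32 CPM (-1.51), *Col11a1* at 1304 and 537 CPM (-1.28) and *Col12a1* at 533 and 261 CPM (-1.03). The *Col2a1* ratio of -3.73 and the *Col9a3* ratio of -1.25 rest on 1 untreated cell with 77.9% and 74.3% of the UMIs of the chain. In summed UMIs, type I chains were lower by less than 2-fold, at -0.54 for *Col1a1* and -0.50 for *Col1a2*. The median cell differed by more, with 32045 and 11492 CPM of *Col1a1* and 23260 and 9081 CPM of *Col1a2*.

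The *Postn*-high osteoblast-lineage cells differed less between the libraries in their main chains. There 6 of 28 chains were lower and 1 was higher (all genes: 3.0% and 3.48%). *Col13a1* was at 145 and 25.5 CPM (-2.50), *Col24a1* at 20.3 and 7.57 CPM (-1.42), *Col6a5* at 13 and 5.44 CPM (-1.25), *Col8a2* at 124 and 55.8 CPM (-1.15) and *Col8a1* at 232 and 105 CPM (-1.14). *Col6a5* had 43.6% of its untreated UMIs in 1 cell and a ratio of -0.70 without the top cell of each library. *Col2a1* (-1.56) again had over 50% of its untreated UMIs in 1 cell, and in both osteoblast classes its calcitriol level lay below that of erythroid-like cells. *Col4a1* was the higher chain, at 34.6 and 75.7 CPM (1.13), while *Col1a1* and *Col3a1* lay at -0.13 and -0.22.

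In the *Tnfrsf11b*-led cells, 4 of 23 chains were lower and 2 higher (all genes: 3.41% and 5.39%). *Col13a1* (-3.69) was followed by *Col11a2* at 359 and 108 CPM (-1.73), *Col2a1* at 13394 and 5028 CPM (-1.41) and *Col27a1* at 492 and 216 CPM (-1.19). *Col8a1* was higher, at 31.3 and 79.1 CPM (1.34), as was *Col9a1*, at 13.8 and 28.0 CPM (1.02, 0.05 to 2.12), which turned to -1.15 when cells were thinned to 2000 UMIs. *Col1a1* had a ratio of -0.76, so the type II chain was further below its untreated level than the type I chain.

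Growth plate chondrocyte-like cells had 3 of 26 chains lower and 3 higher (all genes: 4.38% and 3.10%). Their major chains differed by less than 2-fold, with *Col2a1* at -0.57, *Col11a1* at -0.54 and *Col9a3* at -0.39. *Col15a1* was lower, at 74.8 and 31.5 CPM (-1.25), as were *Col26a1* at 10.5 and 3.11 CPM (-1.76) and *Col10a1* at 662 and 53.8 CPM (-3.62), the last with 88.3% of its untreated UMIs in 1 cell. *Col1a1* was higher, at 52.0 and 322 CPM (2.63), with 52.9% of the calcitriol UMIs in 1 cell. *Col3a1*, at 14.6 and 83.0 CPM (2.51), and *Col4a1*, at 6.43 and 14.1 CPM (1.13), were higher too. Without cells scored as doublets these 3 ratios turned to -0.99, -0.24 and -0.23.

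In *Ihh*-high chondrocyte-like cells, 8 of 20 chains were lower and 0 higher (all genes: 5.55% and 3.34%). *Col3a1* was at 1173 and 192 CPM (-2.61), *Col1a1* at 3237 and 684 CPM (-2.24), *Col5a1* at 178 and 37.9 CPM (-2.23), *Col13a1* at 38.0 and 12 CPM (-1.66) and *Col1a2* at 2848 and 965 CPM (-1.56). *Col16a1* (-1.19), *Col12a1* (-1.17) and *Col5a2* (-1.15) were the others. Most of these are chains of bone and fibrous tissue, and 1 cell held 96.1% of the *Col1a1* UMIs of the calcitriol library. The summed *Postn*-high markers of the class, 8 genes, stood at 1266 and 403 CPM and their part was not tested. The cartilage chains *Col2a1*, *Col11a1*, *Col11a2* and *Col10a1* lay between -0.46 and -0.64.

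Hypertrophic chondrocyte-like cells had 1 of 16 chains lower, *Col10a1*, and 1 higher, *Col1a2*, at 349 and 785 CPM (1.17), against 5.54% and 6.76% of all genes. Of the 16 chains, 7 were below 0. In superficial articular chondrocyte-like cells, 7 of 29 chains were lower and 2 higher (all genes: 3.24% and 3.14%). *Col1a1* was at 1872 and 355 CPM (-2.40), *Col15a1* at 247 and 62.9 CPM (-1.97), *Col11a2* at 699 and 288 CPM (-1.28), and *Col27a1* at 426 and 179 CPM (-1.25). *Col24a1* (-1.25), *Col4a5* (-1.05) and *Col9a1* (-1.0) were lower as well. The *Col1a1* levels come from a minority of cells, as the median cell held 0 CPM in both libraries. At least 1000 CPM of both *Col1a1* and *Col2a1* was found in 23 of 227 untreated and 28 of 620 calcitriol cells. That level of *Col1a1* without that of *Col2a1* was found in 1 untreated and 6 calcitriol cells. *Col10a1* was higher, at 109 and 276 CPM (1.33), where the erythroid-like cells had 2.77 and 27.4 CPM, and so was *Col4a3*, at 2.25 and 5.92 CPM (1.40). Of the erythroid-like *Col10a1* UMIs of the calcitriol library, 75.9% were in 1 cell. In the superficial articular class 1 cell held 33.3% of the untreated and 1 cell 32.6% of the calcitriol *Col10a1* UMIs.

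In *Notum*-high chondrocyte-like cells, 5 of 23 chains were lower and 2 higher (all genes: 4.63% and 4.88%). *Col15a1* was at 152 and 48.6 CPM (-1.64), *Col2a1* at 20761 and 8320 CPM (-1.32), *Col11a2* at 1456 and 602 CPM (-1.27), *Col27a1* at 645 and 290 CPM (-1.15) and *Col9a1* at 1336 and 633 CPM (-1.08). The cartilage chains were thus lower while *Col1a1* (-0.14) and *Col1a2* (-0.05) were nearly level. *Col4a1* (1.84) and *Col8a1*, at 6.30 and 15.0 CPM (1.25), were higher.

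The 3 tendon-like classes differed in how far the libraries lay apart. *Angptl7*-high cells had 12 of 23 chains lower and 0 higher (all genes: 6.98% and 3.88%), and the 10 with the largest ratios were *Col15a1* (-2.58), *Col27a1* (-2.53), *Col8a2* (-1.97), *Col5a1* (-1.53), *Col8a1* (-1.51), *Col6a2* (-1.45), *Col11a2* (-1.43), *Col3a1* (-1.42), *Col1a1* (-1.40) and *Col5a3* (-1.37). *Col1a1* was at 15501 and 5876 CPM and *Col3a1* at 5060 and 1895 CPM. *Chodl*-high cells had 5 of 26 lower and 0 higher (all genes: 3.41% and 4.00%): *Col13a1* (-1.62), *Col8a2* (-1.44), *Col26a1* (-1.18), *Col1a1* (-1.08) and *Col27a1* (-1.07). *Igfbp2*-high cells had 4 of 23 lower and 1 higher (all genes: 4.67% and 3.39%). The lower ones were *Col15a1* at 172 and 40.5 CPM (-2.09), *Col8a1* at 1252 and 460 CPM (-1.45), *Col8a2* at 295 and 112 CPM (-1.40) and *Col5a3* at 63.5 and 29.8 CPM (-1.09). *Col2a1*, at 18.9 and 46.5 CPM (1.30), was below the erythroid-like level of each library. Its ratio was -0.58 without cells scored as doublets, and the source of these UMIs was not tested. The 9 tendon markers moved both ways: *Scx*, *Kera*, *Tnmd* and *Mkx* were lower in all 3 classes (*Scx* at 217 and 33.7 CPM in *Angptl7*-high cells), while *Angptl7* was higher in all 3 (1576 and 7823 CPM in *Angptl7*-high cells). *Thbs4* was higher in *Chodl*-high (10461 and 12617 CPM) and *Igfbp2*-high cells (1688 and 2107 CPM), and *Chodl* and *Mstn* were higher in *Chodl*-high cells (930 and 1220 CPM, 309 and 729 CPM). The part of these markers in the collagen levels was not tested.

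Fibroblast-like cells, with 434 and 661 cells, had 4 of 27 chains lower and 1 higher (all genes: 3.07% and 2.92%). *Col8a2* was at 18.5 and 3.40 CPM (-2.45), *Col6a6* at 46 and 18.8 CPM (-1.29) and *Col15a1* at 264 and 129 CPM (-1.03). The *Col2a1* ratio of -1.64 turned to 0.49 without the top cell of each library. *Col10a1*, at 1.87 and 4.87 CPM (1.38), lay below the erythroid-like level in both libraries. Synovial lining-like cells had 3 of 17 lower and 0 higher (all genes: 6.79% and 3.77%). These were *Col6a2* at 359 and 175 CPM (-1.04), *Col8a1* at 68.1 and 33.8 CPM (-1.01), and *Col12a1* (-1.58), with 90.5% of the untreated UMIs in 1 of 25 cells. Without the top cell of each library the 3 ratios were -0.91, -0.69 and 1.59, so none stayed past 2-fold lower. *Prg4*, encoding lubricin, took 9.37% and 16.7% of the UMIs of this class.

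In *Gpihbp1*-high endothelial-like cells, 13 of 20 chains were lower and 0 higher (all genes: 3.05% and 1.53%). The 10 with the largest ratios were *Col1a1* (-2.20), *Col3a1* (-2.02), *Col6a3* (-1.81), *Col12a1* (-1.70), *Col11a2* (-1.66), *Col5a2* (-1.60), *Col6a2* (-1.59), *Col16a1* (-1.40), *Col5a1* (-1.32) and *Col1a2* (-1.27). None of these leads in endothelium, and with each cell thinned to 2000 UMIs, *Col1a1* had a UMI in 12% and 10.2% of the cells (58 and 69 shallower cells left out), against 3.89% and 3.52% of erythroid-like cells (98 and 34 left out). Without thinning the shares were 24.5% and 19.2%, against 16.5% and 14.4%. A single cell held 41.7% of the *Col1a1* UMIs in the untreated library and 75.6% in the calcitriol library. The summed *Postn*-high markers of the class stood at 589 and 193 CPM, and their part was not tested. *Col15a1*, which had its highest level in this class but only 1.25 and 4.75 CPM in *Lyve1*-high endothelial-like cells, was lower too (-1.10).

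In *Lyve1*-high endothelial-like cells, 0 of 7 chains were lower and 0 higher (all genes: 2.33% and 3.95%). Smooth muscle or pericyte-like cells had 0 of 16 lower and 1 higher (all genes: 3.08% and 3.60%), which was *Col8a1*, at 15.3 and 58.2 CPM (1.93), with 80.0% of the calcitriol UMIs in 1 cell. In Schwann-like cells, 1 of 7 chains was lower, *Col3a1*, at 1190 and 449 CPM (-1.41), and 0 were higher (all genes: 9.16% and 6.98%). The class held 17 and 20 cells, and its fibroblast markers stood at 14657 and 2203 CPM, whose part was not tested.

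Chains that assemble together did not all keep a fixed ratio. The ratio of *Col6a1* to *Col6a2* had a median of 1.63 over classes and libraries and the narrowest span, 2.84-fold. *Col4a1* to *Col4a2*, the opposite-strand pair shown above, had a median of 1.57 and ranged from 0.373 in untreated *Notum*-high cells to 2.35 in calcitriol fibroblast-like cells. *Col1a1* to *Col1a2*, which enter type I collagen as 2 chains to 1, had a median of 1.13. It was 1.83 and 1.69 in osteocyte-like cells, 1.49 and 1.44 in *Bglap*-high cells and 1.11 and 1.05 in *Angptl7*-high tendon-like cells. In the 5 chondrocyte-like classes *Col1a2* exceeded *Col1a1* in both libraries, apart from untreated *Ihh*-high cells with a ratio of 1.14, and the ratio was as low as 0.111 in untreated growth plate cells and 0.0685 in calcitriol hypertrophic cells.

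The type XI pair differed widely between classes, but not as cartilage against other tissues. Its lowest ratio, 1.53, was in untreated osteocyte-like cells. *Col11a1* to *Col11a2* stood at 2.04 and 1.85 in growth plate cells and at 2.19 and 2.09 in *Ihh*-high cells, but at 163 and 71.8 in *Postn*-high cells and 79.7 and 53.5 in *Igfbp2*-high tendon-like cells. In those last 2 classes *Col11a1* was plentiful with almost no *Col11a2* (39 and 49 UMIs, and 8 and 15 UMIs). The *Postn*-high ratios depend on the clustering and on thinning: over the alternatives they ranged from 7.63 to 306 in untreated and from 6.80 to 330 in calcitriol mice, lowest at resolution 0.5 and with 20 components, and highest with thinned cells. *Col8a1* to *Col8a2* ranged from 0.191 to 26.0, and *Col5a1* to *Col5a2* had a median of 0.365. Between the 2 libraries the median absolute shift of a ratio was smallest for *Col6a1* to *Col6a2* (0.16 on the log2 scale) and largest for *Col8a1* to *Col8a2* (0.94).

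**Figure D5:**
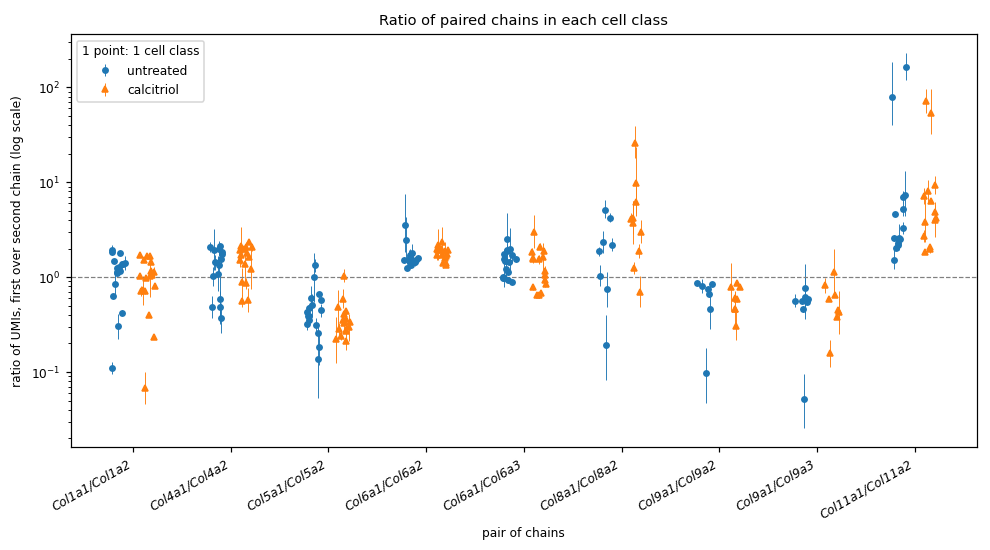
Ratio of the UMIs of paired chains (vertical axis, log scale; dashed line at 1) for 9 pairs, with 1 point per cell class, circles for the untreated and triangles for the calcitriol library, and bars for 95% intervals of counting error. *Col6a1* to *Col6a2* spans 2.84-fold, and *Col11a1* to *Col11a2* reaches 163 in untreated *Postn*-high cells.

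Genes that process or bind collagen were read from a list of 52, of which 48 had 50 UMIs in a class. Of 617 gene and class pairs, 114 (18.5%) were at least 2-fold lower in the calcitriol library and 40 (6.48%) at least 2-fold higher, against 4.10% and 3.61% of all gene and class pairs. *Serpinh1*, encoding the collagen chaperone Hsp47, was past 2-fold lower in 16 of 18 classes with a median log2 ratio of -1.58. It went from 3411 to 1350 CPM in growth plate cells, from 1472 to 410 CPM in osteocyte-like cells, from 1449 to 310 CPM in *Angptl7*-high cells and from 1303 to 437 CPM in fibroblast-like cells. The exceptions were smooth muscle or pericyte-like cells (771 and 502 CPM, -0.62) and hypertrophic cells (338 and 389 CPM, 0.20).

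Among the hydroxylases and their partners, *P4ha1*, the catalytic subunit of prolyl 4-hydroxylase, was below 0 in 17 of 17 classes with a median of -0.83, and *Ppib*, the most abundant gene of that group, below 0 in 17 of 18 with a median of -0.47. *Plod2* and *P4hb* had medians of -0.21 and -0.29. *P3h4* and *P4ha2* were past 2-fold lower in 7 of 13 classes each. *Colgalt1*, which adds galactose to hydroxylysine, had a median of -0.32, and *Colgalt2* of 0.03. Of the chaperone and export genes next in level to *Serpinh1*, *Fkbp10* and *Mia3* had medians of -0.44 and -0.21. *Pcolce*, an enhancer of propeptide cleavage, was past 2-fold lower in 8 of 14 classes and higher in 0. *Pcolce2* and *Bmp1* went both ways. *Pcolce2* was past 2-fold lower in 3 and higher in 1 of 11 classes (*Postn*-high cells), with a median of 0.01. *Bmp1* was lower in 1 and higher in 1 of 17 (osteocyte-like cells), with a median of -0.24.

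*Lox*, encoding the lysyl oxidase that cross-links collagen, went the other way. It was past 2-fold higher in 10 of 16 classes (median 1.38) and past 2-fold lower in osteocyte-like cells (379 and 177 CPM, -1.10). The largest ratio was in synovial lining-like cells, from 42.5 to 391 CPM (3.20). *Lox* went from 70.2 to 365 CPM in superficial articular cells (2.38) and from 535 to 1873 CPM in *Angptl7*-high cells (1.81). *Loxl2* and *Loxl1*, of the same family, had medians of -0.78 and -0.44. Of the receptors, *Itga10*, an integrin subunit that binds collagen, was past 2-fold higher in 8 of 11 classes, for example at 53.9 and 174 CPM in *Tnfrsf11b*-led cells, whereas *Itgb1*, its partner subunit, had a median of -0.27, *Ddr2* of -0.32 and *Itga1* of 0.24. Of the fibril regulators, *Kera* (keratocan) was past 2-fold lower in 6 of 6 classes, and *Sparc*, *Dcn* and *Comp* had medians of -0.31, 0.14 and -0.52.

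Across classes the levels of these genes stood in differing relations to the collagen share. Over the 18 classes, Spearman's correlation of the class level (mean of both libraries) with the collagen share was 0.87 for *P3h4*, 0.83 for *Serpinh1* and *Fkbp10*, and 0.80 for *Plod2* and *Sparc*. At the other end were *Tnxb* (-0.78), *Itga1* (-0.52) and *Itgb1* (-0.51), and genes such as *Dcn* (0.09), *Ddr2* (0.02) and *Mia3* (-0.04) lay near 0. The classes share 2 libraries, and the values are given as a description.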

How the data were processed

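Per the study's methods and the labels, the authors aligned 10x 3′ v3.1 libraries to mm10 with Cell Ranger 4.0.0 and analysed them with Seurat 3.2.2. They deposited raw UMI counts per gene and barcode, and these counts are the unit used here. Barcodes with at least 200 genes were clustered in each library, and the cluster with median mitochondrial share above 10%, under 1000 genes and under 2000 UMIs was left out. The remaining cells were integrated with Seurat 5.3.0 in R 4.3.3 (2000 variable genes without collagen genes, 30 components, resolution 0.8). Of 24 clusters, 2 that held *Ihh* were split at resolution 0.3, giving 29. This split and the naming rule (3 markers, each in at least 10% of cells and at 2-fold the other cells, and a lead of 2 over unrelated lists) were set after the clusters were seen.

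UMIs were summed per class and library and expressed as CPM with exact Poisson, conditional binomial or Clopper-Pearson 95% intervals (Python 3.11.15, scipy 1.17.1). Genes with at least 50 UMIs over both libraries were compared, and a ratio of at least 2-fold was counted. The floor was 3 counts. Doublets were scored against simulated pairs (172 untreated and 123 calcitriol cells, kept). The fold-change counts and ratio intervals were tested on simulated Poisson counts for the fibroblast-like and osteocyte-like classes. Such counts hold no spread between cells, so they cannot show how calls behave when 1 cell dominates. Filtering, clustering, naming and doublet scoring were not tested in this way. The chains named were the 5 highest per class, those restricted to a class, those past 2-fold (the 10 largest per class) and the chains of each pair. Of the processing list, the 3 highest genes per group and those often past 2-fold were named. The members and lists were chosen with earlier results of these data known. Alternatives were another resolution, number of components, filter, scaling, threshold and merging, and cells without doublets or thinned to 2000 UMIs. RefSeq promoter windows were of GRCm38.p6.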

Additional observations from a re-analysis of the deposited data

Results flagged for a closer look

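Chains that lay past 2-fold lower in one class and past 2-fold higher in another drew attention. With 1 library per group, none of these differences between classes was tested. *Col1a1* had a log2 ratio of -2.40 in superficial articular chondrocyte-like cells and 2.63 in growth plate chondrocyte-like cells, and *Col3a1* of -2.61 in *Ihh*-high and 2.51 in growth plate cells. *Col1a2* was at -1.56 in *Ihh*-high and 1.17 in hypertrophic cells. *Col2a1* was at -3.73 in *Bglap*-high osteoblast-like and 1.30 in *Igfbp2*-high tendon-like cells, and *Col10a1* at -3.62 in growth plate and 1.38 in fibroblast-like cells. *Col8a1* was at -1.51 in *Angptl7*-high tendon-like and 1.93 in smooth muscle or pericyte-like cells. *Col9a1* was at -1.08 in *Notum*-high and 1.02 in *Tnfrsf11b*-led cells. Several of these values carry limits given above. In growth plate cells *Col1a1* and *Col3a1* turned to -0.99 and -0.24 without cells scored as doublets. In the *Ihh*-high class every cell with at least 1000 CPM of both *Col1a1* and *Col2a1* was scored as a doublet. The median superficial articular cell held 0 CPM of *Col1a1* in both libraries. A single cell held most UMIs of 1 library for *Col2a1* in *Bglap*-high, *Col10a1* in growth plate and *Col8a1* in smooth muscle or pericyte-like cells. *Col2a1* in *Igfbp2*-high and *Col10a1* in fibroblast-like cells lay below the erythroid-like level of each library.

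Collagen UMIs also occurred outside the classes compared. In barcodes with under 200 genes they made up 0.0127% of UMIs in the untreated and 0.0283% in the calcitriol library, and in the left-out cluster of each library 2.0% and 0.569%. The skeletal muscle-like class (41 and 3 cells) had 0.210% and 0.654%. The *S100a9*-led class, unnamed because it held 5 reticular and 4 neutrophil markers (33 and 9 cells), had 1.57% and 0.670%.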

How the results depend on the processing

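Of the 106 chain and class pairs past 2-fold, those with a value stayed past 2-fold in 97 of 106 with collagen genes among the variable genes, 79 of 93 at resolution 0.5, 105 of 106 at resolution 1.2, 89 of 98 with 20 components, 79 of 94 merged without integration, 86 of 106 when any single limit left a cluster out, 87 of 106 without doublets, 104 of 106 without haemoglobin and mitochondrial genes, 81 of 104 thinned to 2000 UMIs, 86 of 106 with the mean of the cells' own CPM, 95 of 96 after subtracting the erythroid-like level and 82 of 87 with the *Ihh* clusters not split (added after seeing the data). The number of pairs tested changed with the setting. Against 92 lower pairs of 370, there were 53 of 224 when thinned and 167 of 370 at 1.5-fold. Against 14 higher pairs of 370, there were 3 of 224 when thinned and 33 of 370 at 1.5-fold. With at least 20 UMIs 32 of 448 were higher, and with at least 200 UMIs 6 of 271. Shares over all genes are not given for these alternatives. The collagen share was lower in 14 of 15 to 18 of 18 classes. It kept its sign in 17 classes, from -1.74 to -1.32 in osteocyte-like and -1.38 to -1.02 in *Angptl7*-high cells, and ran from -0.44 to 0.14 in smooth muscle or pericyte-like cells. For the processing list, 52 of 305 pairs were lower and 14 higher when thinned, and 235 of 617 were lower at 1.5-fold.

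The following log2 ratios turned sign, and the cause was not tested. With collagen genes kept, *Col9a3* in *Bglap*-high cells was 0.57 and *Col11a2* in *Gpihbp1*-high cells 1.08. In growth plate cells *Col1a1* and *Col3a1* were -0.62 and -0.47 at resolution 0.5, -0.90 and -1.60 with any single limit, -0.99 and -0.24 without doublets, and -1.10 and -1.51 with clusters not split. There *Col10a1* was 0.073 with any single limit, and *Col4a1* -0.23 without doublets and -1.61 thinned. *Col9a1* in *Tnfrsf11b*-led cells was -0.41 with 20 components, -0.0024 merged, -1.15 thinned and -0.73 not split. *Col8a1* in *Notum*-high cells was -0.28 with 20 components. *Col9a3* in *Bglap*-high cells was 1.46 with any single limit and 0.12 without the top cells. Without doublets *Col2a1* was -0.58 in *Igfbp2*-high and 0.13 in fibroblast-like cells, the latter 0.49 without the top cells. Thinned, *Col8a2* in *Bglap*-high cells was 0.82, and *Col8a1* and *Col12a1* in synovial lining-like cells were 0.089 each, and without the top cells the latter was 1.59.

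No paired analysis was possible because each group is 1 library and the labels carry no replicate numbers, and no replicate could be left out. Intervals cover counting error only. Classes of 17 to 25 cells (hypertrophic, Schwann-like, untreated osteocyte-like and synovial lining-like) limit what can be read from them.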
